A study of Mus musculus with 12 samples.

Results

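Liver RNA-seq counts were examined for 5 genes of zinc buffering and cation export: the metallothioneins Mt1 and Mt2, their zinc-sensing regulator Mtf1, and the exporters Slc30a1 and Slc30a10. They are 5 of the 46078 genes in the table, and all 5 were among the 13054 genes that passed the filter on low counts. Mt1 and Mt2 were chosen because they were among the genes most lowered in food-restricted mice relative to freely fed mice. That comparison is therefore given below as a description for all 5 genes, with no p-value, and so is any comparison of Mt1 or Mt2 that uses the food-restricted libraries.

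All 12 mice were C57BL/6 animals with diet-induced obesity on a high fat diet, aged 21 weeks, and all had surgery. The VSG group had vertical sleeve gastrectomy, an operation that removes most of the stomach. The Sham-WM group had sham surgery and was then food-restricted to match the weight of the VSG group, and the Sham-Ad lib group had sham surgery and unrestricted food. Livers were taken on day 16 after 5 h without food, and 4 mice per group, selected by the study from larger groups, were sequenced, each as a library of its own. The study set Sham-WM beside VSG to separate effects of the operation from those of weight loss. It also reported that VSG mice ate more than Sham-WM mice. In that comparison alone, the operation and food restriction therefore cannot be told apart.

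Metallothioneins are small, cysteine-rich proteins that bind zinc and copper, and the liver makes large amounts of them when zinc, glucocorticoids or inflammatory cytokines such as IL-6 rise. MTF1 is a transcription factor that is activated by free zinc, binds metal response elements in DNA, and induces Mt1, Mt2 and Slc30a1. Slc30a1 (ZnT1) exports zinc across the plasma membrane, whereas Slc30a10, of the same family, is best known as an exporter of manganese from hepatocytes.

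The promoters of Mt1, Mt2 and Slc30a10 are shown because the levels of these 3 genes set the Sham-WM libraries apart from the others. Each is the stretch of 250 bases up to the RefSeq transcription start on the plus strand of GRCm38.p6, read 5′ to 3′. Capitals mark the core of the metal response element, TGCACNC or TGCGCNC, searched on both strands. The windows are chr8:94178839-94179088 for Mt1, chr8:94172368-94172617 for Mt2 and chr1:185454598-185454847 for Slc30a10.
Mt1: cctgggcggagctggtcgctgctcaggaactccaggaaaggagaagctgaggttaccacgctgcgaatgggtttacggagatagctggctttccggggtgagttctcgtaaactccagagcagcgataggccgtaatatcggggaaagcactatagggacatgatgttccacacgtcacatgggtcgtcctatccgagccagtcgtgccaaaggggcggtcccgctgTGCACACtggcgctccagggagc
Mt2: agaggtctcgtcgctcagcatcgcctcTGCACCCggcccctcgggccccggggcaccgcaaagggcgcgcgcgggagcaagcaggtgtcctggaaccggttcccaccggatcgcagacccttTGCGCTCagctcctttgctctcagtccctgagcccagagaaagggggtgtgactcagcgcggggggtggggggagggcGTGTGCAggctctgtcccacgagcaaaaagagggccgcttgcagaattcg
Slc30a10: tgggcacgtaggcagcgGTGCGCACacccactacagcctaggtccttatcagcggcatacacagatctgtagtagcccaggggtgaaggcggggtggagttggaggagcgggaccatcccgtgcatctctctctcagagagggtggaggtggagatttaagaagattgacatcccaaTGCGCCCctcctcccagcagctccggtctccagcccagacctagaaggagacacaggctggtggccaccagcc
Over a window of 300 bases that also took in the first 50 transcribed bases, the core was found 3 times for Mt1, 4 times for Mt2, 3 times for Slc30a10 and 2 times for Slc30a1. It was found 0 times for Mtf1, which says only that these letters were not in this window. A pair of the matches of Slc30a10 overlapped on opposite strands and were printed as a single run of capitals. Of 32851 RefSeq promoters of the same length, 25.7% held at least 1 match, 7.11% at least 2 and 1.97% at least 3. Both other annotated Mt1 transcripts start beyond the printed window, at positions 94179211 and 94179241 of chromosome 8. A match is a run of letters and not a measured binding site.

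Mt1 (ENSMUSG00000031765) lies on the plus strand of chromosome 8 from 94179082 to 94180327 of mm10 and overlaps no other annotated gene. Mt2 (ENSMUSG00000031762) lies on the same strand from 94172664 to 94173568, so that 5513 bases separate the pair. The longest stretch that the main transcripts of Mt1 and Mt2 share exactly is 20 bases, so a read could rarely match both genes. Mt2 overlaps the antisense gene Gm45774, which is not among the rows of the count table. Mtf1 (ENSMUSG00000028890) lies on chromosome 4 from 124802104 to 124849800, Slc30a1 (ENSMUSG00000037434) on chromosome 1 from 191906767 to 191913247, and Slc30a10 (ENSMUSG00000026614) on chromosome 1 from 185454848 to 185468762. Each of these 3 genes overlaps an antisense gene with few counts, at most 102 in any library for 1110065P20Rik within Mtf1, 6 for 1700034H15Rik within Slc30a1 and 34 for Gm2061 within Slc30a10. The strand setting of the counting is not given in the sources used here, so reads of such pairs may not be told apart.

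The groups rest on a choice between label fields. Levels are given as CPM, the reads of a gene scaled to a common library size by the TMM method. The title of a sample and the name of a library share an animal number, and libraries were grouped by that number. Another label field pairs titles with libraries of other animals, and both fields give the same group to 4 of the 12 libraries. If that field were right, each group would mix low and high libraries, with Mt1 from 3.11 to 672 CPM among Sham-Ad lib mice, 7.22 to 632 among Sham-WM and 9.38 to 698 among VSG, and edgeR's test would call 0 genes at an adjusted p of 0.05 in each comparison, with 715, 465 and 158 genes at an unadjusted p under 0.05. The log2 fold change of Mt1 in Sham-WM relative to Sham-Ad lib would then be -0.21 instead of -5.35. Index numbers in the library names run in 3 consecutive blocks of 4, and each block is 1 group, so that treatment and any batch along these numbers cannot be told apart. Totals lay between 15122520 and 19384076 counts per library, and albumin and the other hepatocyte markers were high in all 12, as the liver label requires. In bulk liver, fewer cells of a type and less RNA per cell cannot be told apart.

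Metallothionein transcripts were scarce in Sham-WM livers and abundant in VSG livers, and the means of freely fed mice lay between. Mt1 was at 49.3, 260.1, 137 and 520 CPM in Sham-Ad lib libraries 3F, 4F, 6F and 10F. It was at 9.38, 7.22, 3.11 and 3.88 CPM in Sham-WM libraries 2F, 9F, 15F and 16F. It was at 698, 632, 672 and 372 CPM in VSG libraries 1F, 8F, 11F and 18F. Every Sham-WM library lay below every library of the other groups, whereas VSG and Sham-Ad lib overlapped through libraries 18F and 10F. Averaged over the 4 mice of a group, Mt1 stood at 241 ± 205 CPM for Sham-Ad lib, 5.90 ± 2.93 for Sham-WM and 593 ± 150 for VSG (mean ± SD).

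**Figure D1:**
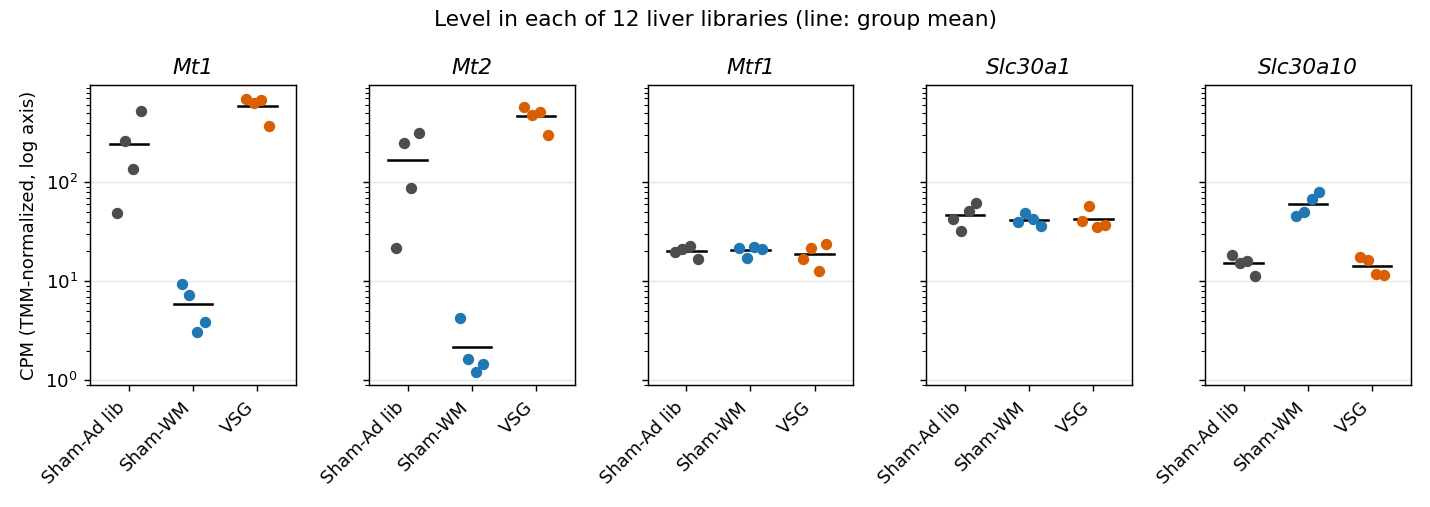
Level of each of the 5 genes in CPM on a log axis, with 1 point per liver library and a line at the mean of the 4 libraries of a group. Mt1 and Mt2 are lowest in all 4 Sham-WM libraries, Slc30a10 is highest in the same 4, and the groups overlap for Mtf1 and Slc30a1.

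Mt2 followed the same order. In Sham-Ad lib it was at 21.7, 247, 87.9 and 313 CPM in libraries 3F, 4F, 6F and 10F. In Sham-WM it was at 4.28, 1.64, 1.22 and 1.46 CPM in 2F, 9F, 15F and 16F, from between 24 and 84 reads per library. In VSG it was at 575, 480, 517 and 297 CPM in 1F, 8F, 11F and 18F. Again the Sham-WM libraries lay below all others, and a single Sham-Ad lib library, 10F, lay within the VSG range. Means over 4 mice were 167 ± 136 CPM for Sham-Ad lib, 2.15 ± 1.43 for Sham-WM and 467 ± 120 for VSG.

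In Sham-WM relative to Sham-Ad lib, the comparison that chose them, Mt1 was 40.8-fold lower (log2 fold change -5.35 ± 0.65, standard error, SE) and Mt2 77.3-fold lower (log2 fold change -6.27 ± 0.76 SE). By log2 fold change, Mt2 ranked 2 from the lowest of the 13054 genes tested and Mt1 ranked 4. Library 10F weighed most on the first of these values, and without it the log2 fold change of Mt1 was -4.66. The groups did not overlap, downwards, for 2 of the 5 genes and, upwards, for 1, against 8.40% and 9.17% of all genes tested, and nothing is read from these shares because the rule used the comparison. In VSG relative to Sham-WM, Mt1 was 100.4-fold higher (log2 fold change 6.65 ± 0.68 SE) and Mt2 216-fold higher (log2 fold change 7.75 ± 0.80 SE). The VSG libraries lay wholly above the Sham-WM libraries for 2 of the 5 genes and wholly below for 1, where 14.3% and 11.9% of all genes did so, and for the chosen pair nothing is read from this either.

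VSG and Sham-Ad lib were compared with a test, with the caution that the Sham-Ad lib libraries also served to choose the pair. Mean Mt1 was 2.46 times as high in VSG (log2 fold change 1.30 ± 0.54 SE), with an adjusted p of 0.167 in edgeR's quasi-likelihood test, and 0.0304 before adjustment. For Mt2 the log2 fold change was 1.48 ± 0.59 SE and edgeR's adjusted p was 0.154, or 0.0257 unadjusted. None of the 5 genes passed an adjusted p of 0.05 in this comparison, in which 0.751% of all genes tested did (0.467% higher and 0.283% lower). An unadjusted p under 0.05 was reached by 2 of the 5 in edgeR, and by 3149 of the 13054 genes tested, and DESeq2 also called 0 of the 5 after adjustment, with adjusted p-values of 0.168 for Mt1 and 0.177 for Mt2. The 2 groups overlapped for all 5 genes, whereas 4.87% of all genes lay wholly higher and 4.34% wholly lower in VSG. When each library was left out in turn, the log2 fold change of Mt1 lay between 0.96 without 3F and 1.98 without 10F, and edgeR's adjusted p stayed above 0.05 for both genes in all 12 fits. With 2 factors of unwanted variation taken from residuals (RUVr), both genes passed, with edgeR's adjusted p of 0.0252 for Mt1 and 0.0204 for Mt2. With 2 factors taken from replicates (RUVs), the log2 fold changes were 0.38 for Mt1 (adjusted p = 0.860, edgeR) and 0.45 for Mt2 (adjusted p = 0.841), so the result depended on the kind of factor.

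The spread within groups was itself unequal. In Sham-Ad lib the highest library exceeded the lowest 10.5-fold for Mt1 and 14.4-fold for Mt2. In Sham-WM these ratios were 3.01 and 3.50, and in VSG 1.88 and 1.93. The freely fed mice thus varied most, and the order of their 4 libraries was the same for both genes. Mt1 reads outnumbered Mt2 reads 1.63 ± 0.50 times in freely fed mice, 2.95 ± 0.99 times after food restriction and 1.27 ± 0.047 times after VSG (SD, n = 4 mice each). In VSG this ratio lay between 1.21 and 1.32 in all 4 mice, and in Sham-WM between 2.19 and 4.41. Sham-Ad lib libraries ranged from 1.05 to 2.27 and overlapped both, with library 3F, the lowest in both genes, at 2.27. Over the 12 libraries, log2 CPM of Mt1 and Mt2 had a Pearson r of 0.996, and deviations from the group means an r of 0.953, which describes libraries that share groups and is not a test.

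The other metallothioneins contributed almost nothing. Mt3, the form best known from brain, had from 0 to 2 reads per library and was at 0 in 9 of 12. Mt4, known from stratified epithelia, was at 0 in all 12, which allows up to 3 reads per library at this depth, counting error only. Neither was tested.

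No difference between the groups was detected in Mtf1, the regulator. It was at 19.6, 21.4, 22.7 and 16.8 CPM in the Sham-Ad lib libraries, at 21.9, 17.3, 22.4 and 21.3 in those of Sham-WM, and at 16.8, 21.5, 12.6 and 24.1 in those of VSG, in the order of libraries used above. All 3 groups overlapped, and the widest spread was within VSG. The log2 fold change was 0.04 ± 0.18 SE in Sham-WM and -0.10 ± 0.18 SE (edgeR's adjusted p = 0.756) in VSG, each relative to Sham-Ad lib. Between VSG and Sham-WM it was -0.14 ± 0.18 SE (edgeR's adjusted p = 0.576). The transcript level says nothing of the amount of MTF1 protein, its zinc binding or its entry into the nucleus.

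Slc30a1, the zinc exporter that MTF1 induces, likewise showed no detectable difference. Sham-Ad lib libraries were at 42.2, 32.1, 51.7 and 61.4 CPM, Sham-WM libraries at 39.3, 48.4, 42.2 and 36.0, and VSG libraries at 40.6, 57.8, 35.6 and 36.6. The ranges overlapped, with the highest library in Sham-Ad lib and the lowest there too. Its log2 fold change was -0.17 ± 0.20 SE in Sham-WM and -0.13 ± 0.20 SE (edgeR's adjusted p = 0.703) in VSG relative to Sham-Ad lib. VSG and Sham-WM differed by a log2 fold change of 0.04 ± 0.20 SE (edgeR's adjusted p = 0.894). With standard errors of this size, differences well under those of the metallothioneins could have gone undetected.

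Slc30a10 lay the other way round from the metallothioneins, highest in the food-restricted mice. It was at 18.6, 15.1, 15.8 and 11.3 CPM in Sham-Ad lib libraries 3F, 4F, 6F and 10F, and at 17.6, 16.5, 11.8 and 11.5 in VSG libraries 1F, 8F, 11F and 18F. In Sham-WM it was at 45.9, 50.4, 68.3 and 78.9 CPM in 2F, 9F, 15F and 16F. All 4 Sham-WM libraries lay above the other 8, while VSG and Sham-Ad lib covered almost the same range. Means over 4 mice were 15.2 ± 3.03 CPM for Sham-Ad lib, 60.9 ± 15.4 for Sham-WM and 14.4 ± 3.16 for VSG.

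In Sham-WM relative to Sham-Ad lib, Slc30a10 was 3.99-fold higher (log2 fold change 2.00 ± 0.21 SE), rank 28 from the highest of the 13054 genes. In VSG relative to Sham-WM it was 4.23-fold lower (log2 fold change -2.08 ± 0.21 SE, adjusted p = 9.24e-05 in edgeR's test), a comparison that shares the Sham-WM libraries with the one that chose the metallothioneins. It was the single gene to pass among the 3 tested there, where 26.9% of all genes tested passed (15.0% higher and 11.9% lower). DESeq2 gave an adjusted p of 2.93e-18, and with each library left out in turn edgeR's adjusted p lay between 0.000107 and 0.00043. Slc30a10 too was chosen with earlier results of these data known, so these p-values describe the comparison and give no independent support. VSG and Sham-Ad lib did not differ detectably, with a log2 fold change of -0.08 ± 0.21 SE (edgeR's adjusted p = 0.831).

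**Figure D2:**
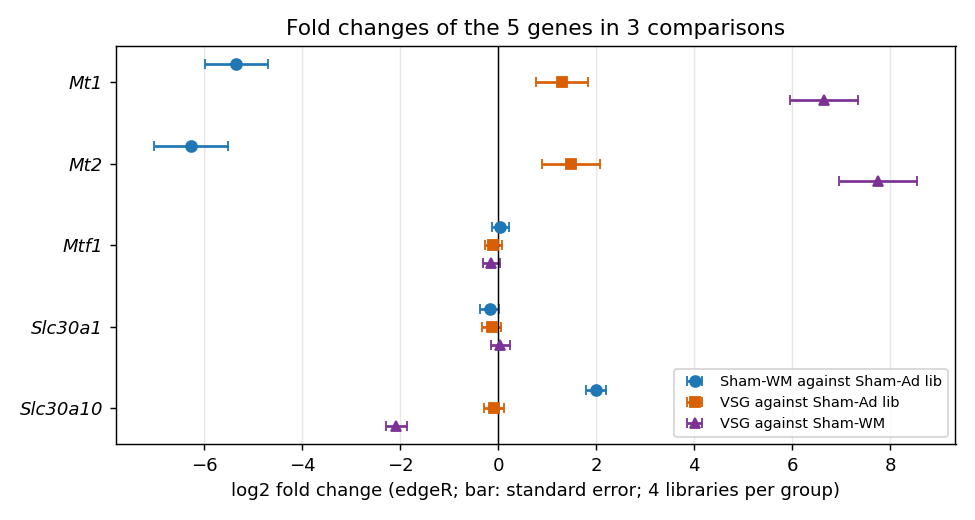
Log2 fold changes of the 5 genes in the 3 comparisons, with bars for edgeR's standard error (4 libraries per group). Mt1 and Mt2 lie at -5.35 and -6.27 for Sham-WM against Sham-Ad lib and at 6.65 and 7.75 for VSG against Sham-WM, Slc30a10 lies at 2.00 and -2.08, and the other values lie near 0 except those of the metallothioneins for VSG against Sham-Ad lib.

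Across all 12 libraries, log2 CPM of Mt1 and Slc30a10 had a Pearson r of -0.95, and their deviations from the group means had an r of -0.60. The pooled value mostly reflects the Sham-WM group, which stands apart for both genes, and both values describe libraries of 3 groups without a test. Within Sham-Ad lib, library 3F had the least Mt1 and the most Slc30a10, and 10F the reverse.

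**Figure D3:**
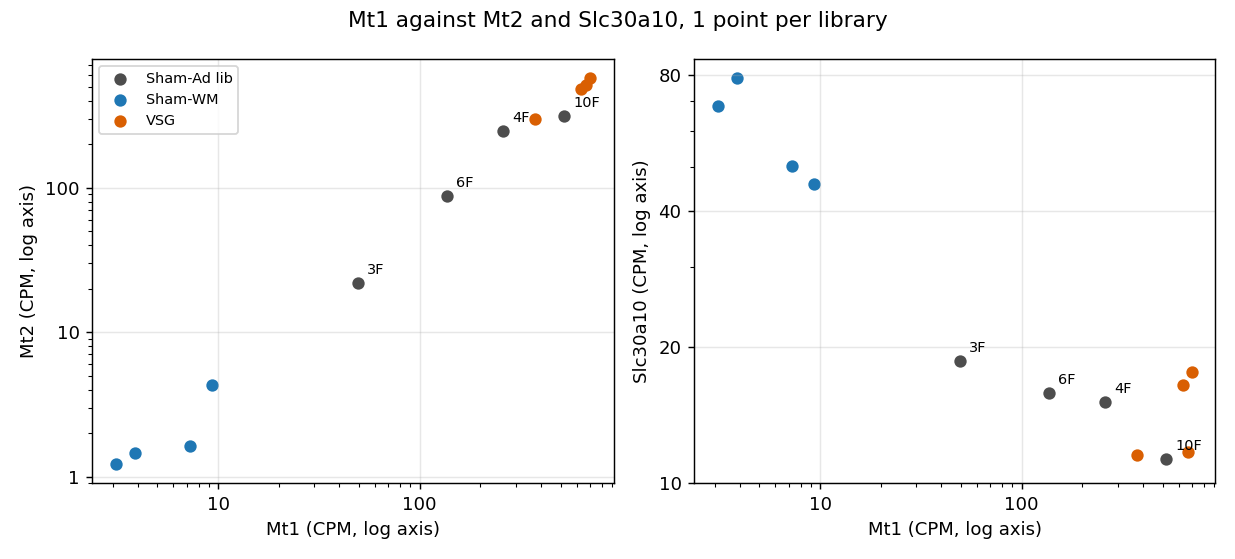
Mt1 level of each library (CPM, log axis) against Mt2 on the left and Slc30a10 on the right (CPM, log axes), coloured by group and with Sham-Ad lib libraries named. Mt1 and Mt2 lie along a line from the Sham-WM libraries, at 3.11 to 9.38 CPM of Mt1, to the VSG libraries, and the 4 Sham-WM libraries stand alone at 45.9 CPM of Slc30a10 or more.

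The order of abundance among the 5 genes differed between the groups. Per kilobase of exonic sequence, Mt2 and Mt1 were the most abundant in Sham-Ad lib, at 285 ± 231 and 194 ± 164 CPM per kilobase, ahead of Slc30a1 (8.93 ± 2.40), Slc30a10 (2.61 ± 0.52) and Mtf1 (2.26 ± 0.29). The order was the same in VSG, with 795 ± 204 for Mt2, 476 ± 120 for Mt1, 8.13 ± 1.97 for Slc30a1, 2.46 ± 0.54 for Slc30a10 and 2.105 ± 0.57 for Mtf1. In Sham-WM, Slc30a10 came first at 10.4 ± 2.64 CPM per kilobase, then Slc30a1 at 7.91 ± 1.01, Mt1 at 4.73 ± 2.35, Mt2 at 3.66 ± 2.43 and Mtf1 at 2.33 ± 0.26. In Sham-WM the ranges of every pair of neighbours in this order overlapped. In Sham-Ad lib and VSG, those of Mt2 and Mt1 overlapped, as did those of Slc30a10 and Mtf1. The exonic length of Mt1 joins 3 transcripts, 1246 bases against 549 for the main one, which lowers its value on this scale. Its place in these orders depends on that choice. Scaled by the main transcript, Mt1 would come above Mt2 in Sham-Ad lib and VSG and above Slc30a10 in Sham-WM. Mt1 and Slc30a10 each had 3 matches to the metal response element core in their windows, and Slc30a1 had 2. These counts are not like for like. The Mt1 window leaves out the starts of its other transcripts, and a pair of the Slc30a10 matches overlap. Whether the matches bear on the levels was not tested.

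Among other genes of zinc, copper and manganese handling, the importer Slc39a10 was higher after food restriction, as Slc30a10 was. Of 40 such genes, 34 were tested. In Sham-WM relative to Sham-Ad lib, 1 of the 34 passed an adjusted p of 0.05 in edgeR's test, where 6.99% of all genes tested passed (3.53% higher and 3.45% lower). In VSG relative to Sham-Ad lib 0 of the 34 passed, where 0.751% of all genes tested passed. At an unadjusted p under 0.05 there were 8 of the 34, and 3149 of all 13054 genes tested. Between VSG and Sham-WM 11 of the 34 passed, 5 higher and 6 lower in VSG, a share of 32.4% that lay close to that of all genes. With RUVr factors 8, 8 and 17 of the 34 passed in these comparisons, with RUVs factors 3, 0 and 0, and with DESeq2 3, 5 and 14. Leaving out single libraries moved these counts to 2 without 3F and 3 without 11F in the first comparison. In the second they moved to 3 (4F left out), 1 (8F) or 4 (18F). In the third they ranged from 6 without 1F to 12 without 18F, with 7 without 15F or 16F. The median log2 fold change of the 34 genes was 0.05, -0.01 and 0.03 in these comparisons, against 0.00079, 0.03 and 0.03 over all genes tested.

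Slc39a10 encodes a plasma-membrane zinc importer whose transcription MTF1 is known to repress when zinc is plentiful. It was at 2.96, 2.41, 3.52 and 1.44 CPM in Sham-Ad lib libraries 3F, 4F, 6F and 10F, at 5.45, 6.35, 7.80 and 8.95 in Sham-WM libraries 2F, 9F, 15F and 16F, and at 1.49, 2.71, 1.58 and 1.88 in VSG libraries 1F, 8F, 11F and 18F. As for Slc30a10, the 4 Sham-WM libraries lay above the other 8. Slc39a10 rose in Sham-WM (log2 fold change 1.46 ± 0.27 SE, adjusted p = 0.00754, edgeR) and was lower in VSG than in Sham-WM (log2 fold change -1.88 ± 0.28 SE, adjusted p = 0.00112). VSG and Sham-Ad lib differed by -0.42 on the log2 scale (standard error 0.29, adjusted p = 0.377).

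The other importers of the ZIP (Slc39) family differed less, and all the calls among them were between VSG and Sham-WM. Of the 13 tested, 6 passed there, Slc39a10 included, where 26.9% of all genes tested passed. Slc39a1 (log2 fold change 0.60, adjusted p = 0.00432) and the Golgi zinc transporter Slc39a13 (0.55, adjusted p = 0.0159) were higher in VSG. Slc39a9 (-0.51, adjusted p = 0.0134), Slc39a7 of the endoplasmic reticulum (-0.82, adjusted p = 0.0299) and Slc39a8, which also carries manganese (-0.36, adjusted p = 0.0467), were lower. Of the 5 other ZnT (Slc30) genes tested, Slc30a5, which loads zinc into the early secretory pathway, passed in this comparison, with a log2 fold change of 0.28 (adjusted p = 0.0388, edgeR). Apart from Slc39a10, none of these 18 zinc transporters passed in either comparison with Sham-Ad lib in edgeR's test, where 3 others in Sham-WM and 4 in VSG had an unadjusted p under 0.05, and DESeq2 called 1 other in Sham-WM and 2 in VSG. Of all 13054 genes tested, 2814 in Sham-WM and 3149 in VSG had an unadjusted p under 0.05 in edgeR. DESeq2 called 1433 and 1227 genes in all.

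**Figure D4:**
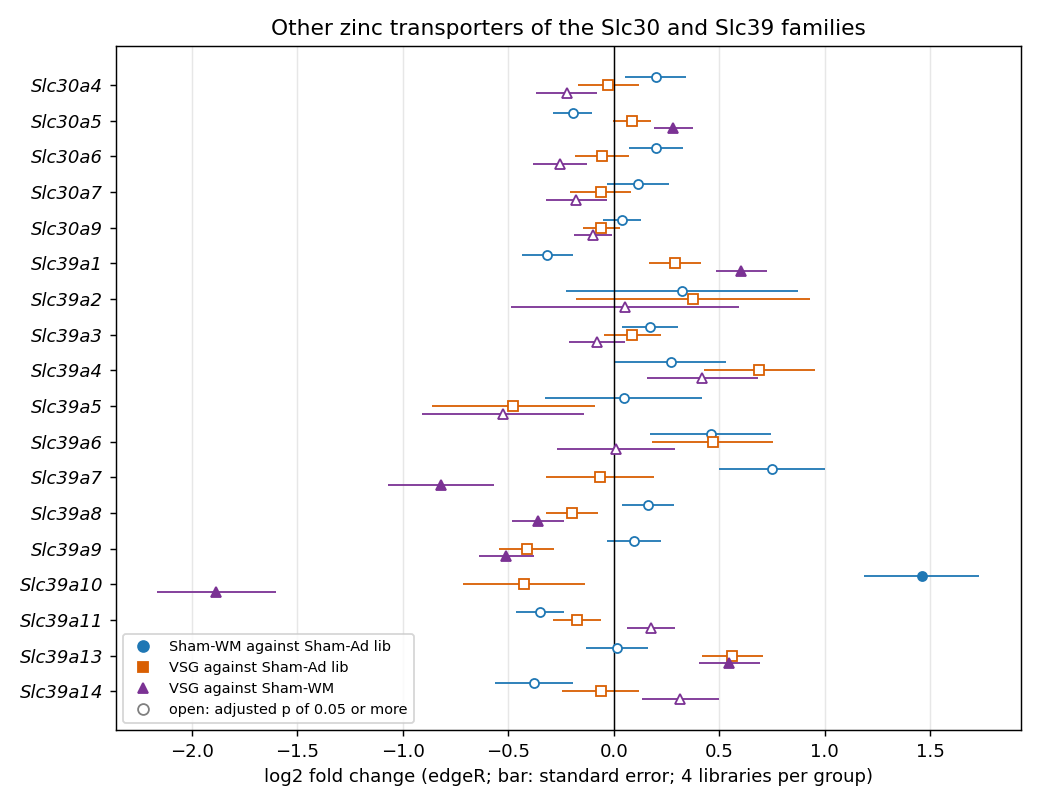
Log2 fold changes of the 5 other Slc30 and 13 Slc39 genes tested, in 3 comparisons, with bars for edgeR's standard error (4 libraries per group) and filled symbols for an adjusted p under 0.05. Slc39a10 stands apart at 1.46 for Sham-WM against Sham-Ad lib and -1.88 for VSG against Sham-WM, and the other filled symbols all belong to VSG against Sham-WM.

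Of 5 other genes reported to respond to MTF1 or zinc, 3 passed between VSG and Sham-WM, where 26.9% of all genes did. Slc39a10 and Gclc, the catalytic subunit of the enzyme that starts glutathione synthesis, were lower in VSG (log2 fold change -0.59 for Gclc, adjusted p = 0.013, edgeR), and Csrp1, a LIM-domain protein, was higher (0.86, adjusted p = 0.0236). Gclc averaged 243 ± 49.1 CPM for Sham-Ad lib, 350 ± 45.01 for Sham-WM and 232 ± 20.4 for VSG, and its adjusted p in Sham-WM relative to Sham-Ad lib was 0.0532. Among 10 copper genes, Cp, the secreted copper protein ceruloplasmin, was higher in VSG than in Sham-WM (log2 fold change 1.08, adjusted p = 0.0083), and Atp7b, the copper pump that loads it, was lower (-0.55, adjusted p = 0.0169). Atp7b averaged 50.0 ± 6.47 CPM for Sham-Ad lib, 45.2 ± 3.22 for Sham-WM and 30.8 ± 6.95 for VSG, and VSG and Sham-Ad lib differed by -0.70 on the log2 scale with an adjusted p of 0.0502. Of the 4 manganese genes, Slc39a8 alone passed, again between VSG and Sham-WM, with the values given above.

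Genes of IL-6 signalling and of the acute phase, another class that IL-6 induces, mostly followed the direction of the metallothioneins. The list joined acute phase proteins with the signalling genes Il6ra, Il6st, Stat3 and Socs3. Of 13 listed genes, 11 were higher in VSG than in Sham-WM, and none lower, a share of 84.6% where 15.0% of all genes tested were higher. Their median log2 fold change was -0.995 in Sham-WM and 1.17 in VSG, each relative to Sham-Ad lib, and 2.28 between VSG and Sham-WM, against the medians of all genes given above. The 4 with the smallest adjusted p were Lbp, the lipopolysaccharide-binding protein (log2 fold change 2.24, adjusted p = 0.00205, edgeR), haptoglobin Hp (2.28, adjusted p = 0.00317), Orm2 (6.61, adjusted p = 0.00365) and lipocalin Lcn2 (6.35, adjusted p = 0.00367). In Sham-WM relative to Sham-Ad lib, 3 of the 13 were lower, where 3.45% of all genes tested were. They are named here after their values were seen: Il6ra, the IL-6 receptor subunit (-0.82, adjusted p = 0.0163), Saa2 (-6.01, adjusted p = 0.0352) and Saa1 (-4.64, adjusted p = 0.0427). In VSG relative to Sham-Ad lib 0 of 13 passed in edgeR's test, where 0.751% of all genes tested passed. At an unadjusted p under 0.05 there were 8 of the 13, and 3149 of all 13054 genes tested. DESeq2 called 4 of the 13, and 1227 genes in all. Saa1 and Saa2, like Orm2 and its paralogs, are near-identical neighbours whose reads the counting could have split or dropped.

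Library by library, Saa1 ran along with Mt1 in 2 of the 3 groups, although over a wider range. In Sham-Ad lib, Saa1 was at 141, 2127, 798 and 6026 CPM in 3F, 4F, 6F and 10F, the same order as Mt1. In VSG it was at 11973, 5208, 11830 and 245 CPM in 1F, 8F, 11F and 18F, again the order of Mt1. Library 18F, lowest in both, had less Saa1 than 3 of the 4 Sham-Ad lib mice but more Mt1 than 3 of them. In Sham-WM, Saa1 was at 252, 53.6, 33.7 and 24.2 CPM in 2F, 9F, 15F and 16F, and 2F had the most of both, but 15F and 16F changed places. The part of the acute phase in the metallothionein levels was not tested.

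Glucocorticoid-responsive genes did not move in a single direction. Of 11 listed, 3 passed in Sham-WM relative to Sham-Ad lib, where 6.99% of all genes did: the phosphatase gene Dusp1 rose (log2 fold change 1.56, adjusted p = 0.0211, edgeR), and Klf9 (-0.68, adjusted p = 0.0284) and Fkbp5 (-0.88, adjusted p = 0.0484) fell. At an unadjusted p under 0.05 there were 6 of the 11, of which 4 were higher, and 2814 of all 13054 genes tested. Between VSG and Sham-WM, Dusp1 was lower (-1.51, adjusted p = 0.00996) and Klf9 higher (0.50, adjusted p = 0.0427) in VSG, 2 of the 11 where 26.9% of all genes passed. The median log2 fold change of the 11 was 0.45 in Sham-WM and -0.18 in VSG, relative to freely fed mice, and -0.28 between the treatments. None of the 11 passed in VSG relative to Sham-Ad lib in edgeR's test, where 0.751% of all genes did. There 0 of the 11 and 3149 of all 13054 genes had an unadjusted p under 0.05, and DESeq2 called 0 of the 11. A list of 7 genes joined NRF2's own gene, Nfe2l2, with antioxidant genes that NRF2 induces. Of these 7, 3 passed between VSG and Sham-WM, against the same 26.9%: heme oxygenase Hmox1 was higher in VSG (1.78, adjusted p = 0.00579), and thioredoxin reductase Txnrd1 (-0.37, adjusted p = 0.00952) and Gclc were lower. The median of the 7 was 0.15 there. Txnrd1 also rose in Sham-WM relative to Sham-Ad lib (0.32, adjusted p = 0.047).

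Kupffer cell and neutrophil markers were higher in VSG livers, where the metallothioneins were highest. Of 6 Kupffer cell markers, 6 passed between VSG and Sham-WM and 2 between VSG and Sham-Ad lib, all higher in VSG, where 15.0% and 0.467% of all genes were called higher. Their summed level lay between 113.5 and 376 CPM for Sham-Ad lib, 104.2 and 183 for Sham-WM and 389 and 1118 for VSG. Of 4 neutrophil markers tested, 4 and 3 passed in the same comparisons, and the sum of the 5 listed lay between 1.03 and 14.5, 2.51 and 3.11, and 21.3 and 620 CPM in the 3 groups. The calls against Sham-Ad lib were lost in every fit that called 0 genes there, such as those without library 6F, 2F, 9F or 1F, with at least 10 counts in every library, or with 2 groups fitted. Fits without 3F, 10F or 16F called 1 gene in all there, and the fit without 15F called 3. At most that many of the marker calls could stand in those fits. Of 4 B and plasma cell markers, 2 passed against Sham-WM and 1 against Sham-Ad lib, all higher in VSG. Between Sham-WM and Sham-Ad lib, none of these lists had a gene past an adjusted or unadjusted p of 0.05 in edgeR's test. DESeq2 called none of their genes there either. Median log2 fold changes in that comparison were -0.34 for the Kupffer cell, -0.71 for the neutrophil and -0.20 for the B and plasma cell markers tested. Adipocyte markers summed to at most 0.151 CPM in any library. Hepatocyte markers summed to between 99245 and 116513 CPM for Sham-Ad lib, 116255 and 143327 for Sham-WM and 72746 and 115147 for VSG. The part of these cells in the metallothionein levels of any group was not tested.

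Genes whose log2 CPM closely followed Mt1 over the 12 libraries, Mt2 aside, included Map1lc3b (Pearson r = 0.976), Glmp (0.973), Ctsa (0.970) and Osbpl9 (0.967), out of 10804 genes compared. Map1lc3b encodes the autophagosome protein LC3B, and Ctsa encodes a lysosomal enzyme. Map1lc3b averaged 148 ± 11.7 CPM for Sham-Ad lib, 77.1 ± 5.74 for Sham-WM and 159 ± 7.68 for VSG, and its r with Mt1 was 0.861 for deviations from the group means. The genes most like Slc30a10 were Desi2 (0.971), Leo1 (0.967), Bop1 (0.961), Ints13 (0.960) and Mical2 (0.960), out of 10805. Desi2 averaged 12.7 ± 0.82, 34.2 ± 3.47 and 12.7 ± 1.69 CPM in the same order of groups. The libraries share group and index block, so these values describe a pattern and carry no p-value.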

How the data were processed

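Poly(A) RNA from 12 livers was made into directional libraries for HiSeq2500 sequencing. Alignment by the authors used TopHat2 2.1.1 and mm10, featureCounts assigned reads to genes, and the deposited values are raw counts per Ensembl gene. The annotation release is not given in the sources used here. Depth was 15122520 to 19384076 counts per library. Intervals from reads would cover counting error only, since no molecular identifiers were used. Of 46078 genes, 45143 matched GENCODE M21, and 22987 were at 0 in every library. Replicates were separate mice, the lowest Spearman rho within a group was 0.963, and no 2 libraries of a group agreed within sampling noise.

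The counts were analysed in R 4.3.3 with edgeR 4.0.16. Genes were kept by filterByExpr (minimum count 10, minimum total 15), scaled by TMM (factors 0.879 to 1.04) and fitted in 1 quasi-likelihood model of 3 groups over all 12 libraries. Benjamini-Hochberg adjustment ran over 13054 genes, with calls at 0.05. Values after ± are SDs, except those marked SE, which are edgeR's standard errors, and log2 CPM used a prior count of 2. Non-overlap means that all 4 libraries of a group lay above or below all 4 of another. The study used DESeq2 and 2 RUVSeq factors. Here DESeq2 1.42.0 and RUVr and RUVs factors written out from their definitions were alternatives, with other normalizations and filters, fits of 2 groups, the other label field, and each library left out. Scripts were tested on simulated data.

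The members and lists were chosen with earlier results of these data known. Named were the 5 members, Mt3, Mt4, genes of the zinc, copper and manganese lists past the threshold in any comparison (at most 8 per list), up to 4 genes of each induction list by smallest adjusted p, and the 5 genes closest to Mt1 and to Slc30a10 whose mean log2 CPM was 1 or more. Promoter sequences came from RefSeq (GRCm38.p6), where all 5 members matched. Protein sequences were not used here, and 1 gene that the naming rule selects is not reported here.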

Additional observations from a re-analysis of the deposited data

Results flagged for a closer look

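Library 2F stood apart from the other Sham-WM libraries in Mt2, at 4.28 CPM against 1.22 to 1.64 in the other 3, and the gap to the nearest library was 0.864 of the range of the group. It was the only such case among the 15 sets of 4 libraries (5 genes in 3 groups) examined, and chance alone marks about 5% of such sets. Library 2F was also highest of its group in Mt1, at 9.38 CPM, and lowest in Slc30a10, at 45.9 CPM. Without 2F, the log2 fold change of Mt2 was -6.85 in Sham-WM relative to Sham-Ad lib.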

How the results depend on the processing

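The direction of Mt1, Mt2 and Slc30a10 in Sham-WM relative to Sham-Ad lib, and in VSG relative to Sham-WM, was the same under other normalizations, filters, DESeq2, factors of unwanted variation and every left-out library. Grouping by the other label field turned Slc30a10 in the first of these comparisons and left the other values near 0, with log2 fold changes of -0.21, -0.028 and -0.80 for these 3 genes in Sham-WM relative to Sham-Ad lib, and of 0.12, 0.14 and -0.062 in VSG relative to Sham-WM, where Slc30a1 was at -0.26. In VSG relative to Sham-Ad lib it gave -0.085 for Mt1 and 0.17 for Mtf1, and it called 0 genes in each of the 3 comparisons. With RUVr factors, Mt1 (1.54) and Mt2 (1.77) passed in VSG relative to Sham-Ad lib. With RUVs factors they did not, at 0.38 and 0.45, and Mtf1 turned to 0.12 in that comparison and to 0.19 in VSG relative to Sham-WM, where Mt1 was at 5.17 and Mt2 at 6.09. The cause of these changes was not tested. The number of all genes called was 912 in Sham-WM relative to Sham-Ad lib, and it was 1433 with DESeq2, 1399 with 2 groups fitted, 2132 with RUVr and 1723 with RUVs. In VSG relative to Sham-Ad lib it was 98, and it was 1227 with DESeq2, 628 with no filter, 0 with at least 10 counts in every library or with 2 groups fitted, 2955 with RUVr and 6 with RUVs. At an unadjusted p under 0.05 there were 3149 genes in the full fit, and 2755 and 2523 in the fits with 0 calls. Between VSG and Sham-WM it was 3509, and it was 5483 with RUVr and 518 with RUVs.

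With 1 library left out, these counts ranged from 424 (without 16F) to 1311 (without 11F), from 0 (without 6F, 2F, 9F or 1F, with 2126 to 3060 genes at an unadjusted p) to 1089 (without 18F) and from 2196 (without 16F) to 3868 (without 18F). The small log2 fold changes of Mtf1 lay between -0.24 and 0.035 in VSG relative to Sham-Ad lib and between -0.29 and 0.0074 in VSG relative to Sham-WM. Those of Slc30a1 lay between -0.35 and 0.00098, and between -0.16 and 0.12, and that of Slc30a10 in VSG relative to Sham-Ad lib lay between -0.22 and 0.025. In Sham-WM, Mt2 rested on 24 to 84 reads per library, so its fold carries the most counting error of the 5 genes. No paired analysis was possible because the animal numbers of the groups are not shared.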
